A study of Mus musculus with 15 samples.

Results

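The libraries described here are the 6 of macrophages exposed to microrods, 3 with a calcium phosphate (CaP) framework and 3 with a SiO2 framework, taken as 1 group and set against the 3 libraries of macrophages treated with IL-4 (M2). They were chosen by their labels and make up 9 of the 15 libraries of the series, and the 3 libraries of cells kept in medium alone (M0) served as the base level. All cells were MH-S, a mouse alveolar macrophage line transformed with SV40, exposed for 24 h to CaP or SiO2 microrods at 0.1 mg/mL or to IL-4 at 20 ng/mL. The remaining 3 libraries, M1, had LPS at 1 ug/mL and IFN-gamma at 20 ng/mL for the same time. They entered the filter on low counts, the scaling of libraries and the joint fit with its estimate of spread, but none of the comparisons. Both rod types carried the same polymer coat of alginate, protamine and carboxymethyl chitosan, and at equal mass they differ in the number of rods because their densities differ. The 3 wells of a rod type each got particles from a preparation of their own, and cells of a single passage were used. The p-values therefore measure the spread between wells, and for the rods between preparations, within 1 passage of 1 line. In the tests of the pooled rods that spread also holds the difference between CaP and SiO2 rods.

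IL-4 binds the IL-4 receptor and, through JAK kinases, activates the transcription factor STAT6, which drives a programme known as alternative activation. Macrophages in that state are known for arginase 1, mannose receptor and other lectins that recognise sugars, for chemokines that draw eosinophils and T cells, and for the feedback inhibitors *Socs1* and *Cish*. Phagocytosis of particles uses the lysosome instead, where the vacuolar proton pump acidifies the phagosome and cathepsins degrade its content, and many particles also elicit cytokines such as *Tnf* and the CCL3 and CCL4 chemokines.

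The total count ranged from 12646926 to 50729211 in the rod libraries, from 8594947 to 68750050 in M2 and from 8459643 to 39201265 in M0, so genes with few counts were measured least precisely in the smallest M0 and M2 libraries. The summed level of 8 general macrophage markers was 2680 to 3220 CPM (a gene's count relative to the TMM-scaled size of its library) with rods, 1430 to 2210 in M2 and 2720 to 3660 in M0. Lysozyme *Lyz2* made up 1570 to 1860 CPM of it with rods and 322 to 438 CPM in M2. Markers of alveolar macrophages were almost absent, with a summed level of 3.57 to 6.38 CPM over 11 genes in the rod libraries and *Siglecf*, *Ear1*, *Ear2* and *Car4* at or under 3 counts in each of them, so the cells are called MH-S macrophages here. Epithelial, fibroblast and lymphocyte markers summed to at most 0.294 CPM in any of these 12 libraries. Endothelial markers summed to 0.227 to 0.920 CPM with rods and 0.921 to 1.77 CPM in M2, nearly all of it *Pecam1*, which was lower with rods (log2 fold change -1.48, adjusted p = 0.0100 by the edgeR test described below), though not without M2 replicate 3 (0.126). Neutrophil markers summed to 4.27 to 7.47 CPM with rods and 3.96 to 20.3 CPM in M2, nearly all of it *Cxcr2*. *Ly6g* and *S100a9* were at or under 3 counts in each library. *S100a8* went the other way from *Cxcr2*, at 0.0756 to 0.287 CPM with rods and at most 0.0143 CPM in M2 and 0.065 CPM in M0. The part of endothelial or neutrophil markers in the results was not tested. M2 replicate 2, M0 replicate 3 and SiO2 replicate 2 stood apart from the rest on a principal component that did not follow the groups. Their total counts, 8594947, 8459643 and 12646926, were the lowest of M2, M0 and the rods, and M2 replicate 3 had the highest of all, 68750050. The part of depth in this component and in the results was not tested.

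Against M2, 968 of 16654 genes tested (5.81%) differed with rods at an adjusted p below 0.05 and a log2 fold change beyond 0.5 in size, by edgeR's quasi-likelihood test with Benjamini-Hochberg adjustment. The same test gave every adjusted p below, and SE stands for the standard error of a log2 fold change. Of these, 532 (3.19% of the genes tested) were higher with rods and 436 (2.62%) were higher with IL-4, while the median log2 fold change over all genes was -0.05. The rod and M2 libraries did not overlap in 1453 genes (8.72%). Each rod type alone gave a similar split, CaP with 406 genes higher (2.44%) and 331 lower (1.99%) than M2, 4.43% in all. SiO2 gave 348 higher (2.09%) and 260 lower (1.56%), 3.65% in all. The number higher with rods depended on M2 replicate 3, since without it 249 genes were higher and 395 lower, and without any filter on low counts the split turned to 461 higher and 592 lower (43.8% higher, against 55.0%). In bulk RNA, fewer cells that express a gene and less of its RNA per cell cannot be told apart.

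With M0 as the base, more of the genes that separated rods from M2 passed the test between IL-4 and M0 than between rods and M0. For the genes higher with rods that order turned when each fit held only the groups compared, where 22 were lowered by IL-4 alone and 24 raised by rods alone. Of the 532 genes higher with rods, 223 (41.9%) were lowered by IL-4 against M0 while rods did not pass the test against M0, whereas 42 (7.89%) were raised by rods while IL-4 did not pass, and 262 (49.2%) passed in neither comparison with M0. Of the 436 genes higher with IL-4, 250 (57.3%) were raised by IL-4 alone, 10 (2.29%) were lowered by rods alone and 164 (37.6%) passed in neither. The mean of M0 was nearer to the rods than to M2 in 384 of the 532 genes (72.2%) and in 375 of the 436 (86.0%). These genes were selected with the same 3 M2 libraries, against 6 of rods, so chance error in the M2 mean favours this order and the split above. The share over all genes tested was not worked out. Over all genes tested, 4.64% were called between M2 and M0 (2.17% higher and 2.46% lower in M2) and 0.895% between rods and M0 (0.438% higher and 0.456% lower with rods). Before adjustment the gap was smaller, with 2953 genes below 0.05 in that test between M2 and M0 and 2683 between rods and M0. Here alone means that the other comparison with M0 did not pass, which does not show that the gene stayed unchanged. Libraries did not overlap in 15.2% of genes between M2 and M0 and in 9.40% between rods and M0. Smaller groups separate more often by chance. With 3 against 3 libraries in the first and 6 against 3 in the second, these shares cannot be set against each other. Both comparisons use the same 3 M0 libraries, and the counts moved with single libraries. The 223 genes lowered by IL-4 alone became 126 without M2 replicate 1 and 82 without M2 replicate 3. The 250 raised by IL-4 alone became 149 without M0 replicate 1. The 42 raised by rods alone became 5 without M0 replicate 1 and 24 without M0 replicate 3. The 10 genes lowered by rods alone became 4 without M0 replicate 1, 17 without M2 replicate 2 and 6 without CaP replicate 2 or 3. The genes that passed in neither became 130 in place of 262 without M2 replicate 3, and 298 without M0 replicate 1 and 106 without M2 replicate 2 in place of 164.

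**Figure D1:**
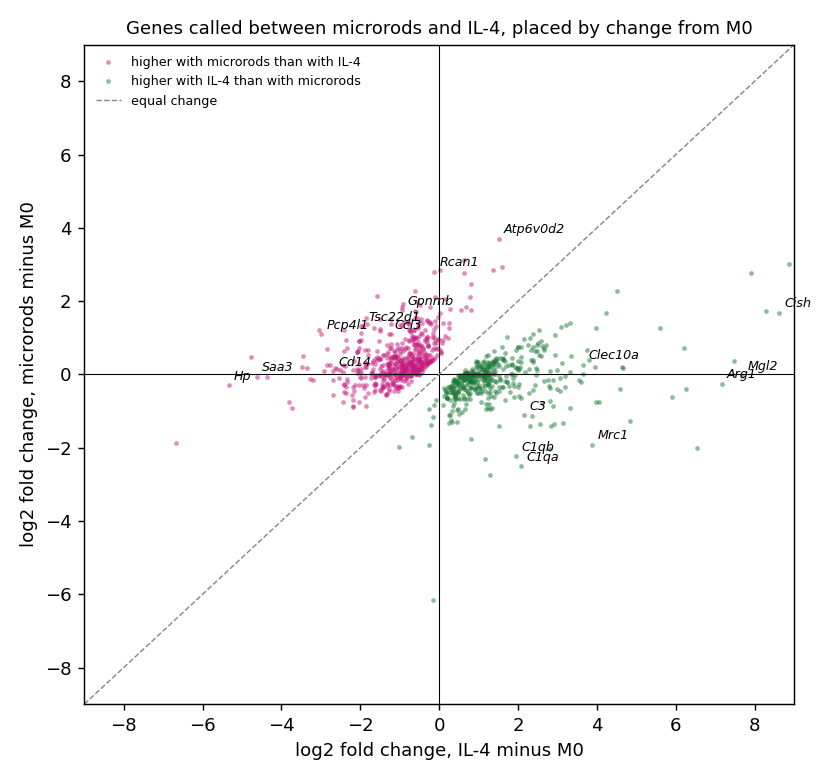
Fitted log2 fold change from M0 with IL-4 (horizontal axis) and with microrods (vertical axis) for the 968 genes called between rods and M2, coloured by the group in which they were higher. Most points spread along the horizontal axis, the change with IL-4, and only a few, among them *Atp6v0d2*, *Rcan1* and the C1q genes, lie far from 0 on the vertical axis.

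Genes of alternative activation held the largest differences on the IL-4 side. Of 20 tested members of a list of such genes, 12 were higher with IL-4 and 1 with rods, with a median log2 fold change of -2.52 (rods minus M2), and 11 of the 20 were raised by IL-4 against M0 whereas rods raised 0 and lowered 2, *Mrc1* and *Klf4*. *Arg1*, the arginase that turns arginine into ornithine, stood at 1720, 1540 and 1380 CPM in the M2 libraries, at 4.63, 8.17 and 17.9 CPM (lowest, median and highest) in the rod libraries, and at 9.80, 8.46 and 14.7 CPM in M0. The rod and M0 libraries overlapped and every M2 library was far above both, and the log2 fold change between rods and M2 was -7.42 (SE 0.37, adjusted p = 7.20e-09). *Mgl2*, a lectin for galactose-type sugars, had 584, 451 and 433 CPM in M2 against 1.06 to 2.64 CPM with rods (median 2.52), a log2 fold change of -7.74 (SE 0.24, adjusted p = 4.47e-11). *Clec10a*, its close paralog, with which reads could be shared, had 214, 189 and 185 CPM in M2 and 18.2 to 19.7 CPM with rods.

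The chemokine *Ccl24*, which draws eosinophils, had 20.3, 27.2 and 20.5 CPM in M2 against 0.119 to 0.492 CPM with rods and 0.659, 0.846 and 1.04 CPM in M0. Its log2 fold change between rods and M2 was -6.11 (SE 0.22, adjusted p = 6.18e-12), and every rod library lay below every M0 library, a difference that missed the threshold (log2 fold change -1.28, adjusted p = 0.0680). *Irf4*, a transcription factor needed for this programme, had 5.41 to 8.46 CPM in M2 against at most 0.294 CPM with rods. *Batf3*, a partner of IRF4 on DNA, differed by -2.28 (SE 0.17) on the log2 scale, and *Flt1*, a VEGF receptor, by -2.11 (SE 0.37). The exception on the list was *Tgm2*, a transglutaminase, at 9.69, 9.61 and 9.59 CPM in M2 and 12.3 to 22.9 CPM with rods (log2 fold change 0.98, adjusted p = 0.0181). That call was lost without any 1 of the M2 libraries, with an adjusted p of up to 0.0838 without M2 replicate 3. *Il4ra*, the receptor itself, and *Myc*, *Egr2* and *Fn1* did not pass the test, with log2 fold changes between -0.81 and 0.25.

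Of 21 genes of JAK-STAT signalling, 5 were higher with IL-4 and 1 with rods (median log2 fold change -0.33), and the feedback inhibitors *Socs1* and *Cish* differed most. *Cish* had 48.7, 37.5 and 31.9 CPM in M2, 0.123 to 0.473 CPM with rods and at most 0.132 CPM in M0, with a log2 fold change between rods and M2 of -6.92 (SE 0.30, adjusted p = 1.27e-10). *Socs1* varied widely within M2, at 75.3, 12.5 and 139 CPM, the lowest value being that of replicate 2, and stayed between 0.226 and 0.897 CPM with rods (log2 fold change -7.11, SE 0.64, adjusted p = 3.48e-06). *Stat5a* and *Socs5* were lower with rods, with log2 fold changes of -0.91 and -0.90, and the call of *Socs5* was lost without M2 replicate 3 (adjusted p = 0.178). *Jak2* was called as well (log2 fold change -1.51, adjusted p = 0.0387). M2 replicate 2 held 9.48 CPM against 3.21 and 2.59 CPM in the other M2 libraries. The call held in 4 of 12 fits without 1 library, with an adjusted p of 0.155 without that one. The member higher with rods was *Il13ra1*, a receptor chain for IL-13 and IL-4, at 12.8 to 17.4 CPM against 5.94, 7.50 and 6.30 CPM in M2, where it was lowered from M0 (log2 fold change -1.42, adjusted p = 5.32e-04). *Stat6* itself did not pass the test (log2 fold change 0.30, SE 0.35).

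The promoters of *Cish* and *Edn1*, which lie among the 12 genes highest with IL-4 by the naming rule, are shown with the matches to the spaced palindromes that STAT proteins bind. An internal promoter of *Rcan1*, the gene that separated the rod types most among those highest with rods, is shown for the letters of NFAT and AP-1 sites. The sequences are those of RefSeq on GRCm38.p6, from 250 bases before to 50 bases after an annotated start, read on the strand of the gene, and both strands were searched. *Cish* lies at chr9:107296409-107296708 on the plus strand, and capitals mark its 2 matches to the STAT site TTCNNNGAA, which begin at and just after the start and each overlap a match to TGGAAA.
Cish: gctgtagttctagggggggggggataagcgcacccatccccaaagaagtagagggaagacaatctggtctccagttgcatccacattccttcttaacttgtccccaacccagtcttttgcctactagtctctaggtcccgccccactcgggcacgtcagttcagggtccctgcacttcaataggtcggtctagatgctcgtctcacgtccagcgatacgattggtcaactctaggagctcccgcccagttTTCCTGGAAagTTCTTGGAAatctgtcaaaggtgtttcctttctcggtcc
*Edn1*, the gene of the vasoconstrictor endothelin 1, lies at chr13:42301226-42301525 on the plus strand, and capitals mark its match to the STAT6 site, TTC and GAA with any 4 bases between them, at position -185 from the start.
Edn1: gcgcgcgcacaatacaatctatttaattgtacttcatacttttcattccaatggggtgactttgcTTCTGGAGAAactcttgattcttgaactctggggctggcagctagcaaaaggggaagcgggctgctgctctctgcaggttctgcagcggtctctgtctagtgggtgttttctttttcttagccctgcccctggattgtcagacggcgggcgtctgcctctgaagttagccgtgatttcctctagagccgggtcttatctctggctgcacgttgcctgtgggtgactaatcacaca
The promoter of *Rcan1* lies at chr16:92400029-92400328 on the minus strand, and capitals mark 2 matches to the NFAT core TGGAAA, read here as its complement, and 1 match to the AP-1 site TGANTCA.
Rcan1: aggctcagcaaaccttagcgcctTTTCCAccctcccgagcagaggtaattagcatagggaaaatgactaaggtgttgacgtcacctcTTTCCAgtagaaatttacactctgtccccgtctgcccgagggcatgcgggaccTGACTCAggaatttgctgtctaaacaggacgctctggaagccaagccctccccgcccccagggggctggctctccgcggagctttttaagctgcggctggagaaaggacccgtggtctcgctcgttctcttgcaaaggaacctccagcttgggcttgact

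Promoters were given for 9 of the 12 genes highest with IL-4 and for 7 of the 12 highest with rods. That STAT6 site was in 6.95% of all 32851 promoters of this length, and in 1 gene of the 9 and 1 of the 7. The STAT site TTCNNNGAA was in 8.30% of all promoters and likewise in 1 gene of each set, and TGGAAA in 21.4% of all promoters and in 4 genes of each set. Some genes have more than 1 promoter, so these counts per gene cannot be set against the shares per promoter, and a match describes letters, not binding. *Edn1* had 24.1, 34.4 and 16.5 CPM in M2 against 0 to 0.374 CPM with rods, with a log2 fold change of -6.53 (SE 0.35, adjusted p = 9.52e-09).

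Genes of the acute phase and of secreted defence were higher with rods than with IL-4, and for these the rods stood near M0. Of 9 tested members, 5 were higher with rods and 1, complement *C3*, was lower, with a median log2 fold change of 2.20, and 0 of the 9 were raised by rods against M0. *Hp*, the haemoglobin scavenger haptoglobin, had 0.751, 1.05 and 0.587 CPM in M2, 18.6 to 27.2 CPM with rods (median 23.3) and 25.7, 29.3 and 30.1 CPM in M0. No rod library came near an M2 library, and the log2 fold change of 5.05 (SE 0.24, adjusted p = 5.63e-09) was the largest of the named genes higher with rods. *Saa3*, a serum amyloid protein, had 0.887, 1.32 and 1.20 CPM in M2 and 19.7 to 39.0 CPM with rods (log2 fold change 4.56, SE 0.30, adjusted p = 1.26e-07). *Slpi*, an inhibitor of neutrophil elastase, had 1.16 to 1.52 CPM in M2 and 13.2 to 20.3 CPM with rods. *Lyz2*, macrophage lysozyme, had 345, 438 and 322 CPM in M2 and 1570 to 1860 CPM with rods (log2 fold change 2.20, SE 0.16). *Lyz1* had 14.6 to 69.9 CPM in M2 and 89.3 to 249 CPM with rods. The lysozyme genes are near-identical, so the division of reads between them is uncertain, and the call of *Lyz1* was lost without M2 replicate 1 (adjusted p = 0.0689). Against M0, the log2 fold changes with rods were -0.29 for *Hp*, -0.06 for *Saa3*, 0.21 for *Slpi* and -0.13 for *Lyz2*, with adjusted p-values from 0.380 to 0.935.

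Surface receptors went both ways. *Cd14*, a coreceptor for bacterial lipopolysaccharide, had 42.9, 45 and 43.7 CPM in M2, 269 to 332 CPM with rods (median 302) and 244, 304 and 294 CPM in M0. Rods and M0 overlapped and M2 lay apart (log2 fold change between rods and M2 2.77, SE 0.13, adjusted p = 3.28e-09). Among 15 receptors for chemoattractants and Fc, 5 were higher with rods and 5 lower. *Cx3cr1*, the fractalkine receptor, had 14 to 32 CPM with rods against 2.59, 2.24 and 3.08 CPM in M2 (log2 fold change 3.03, SE 0.32). *Ptafr*, the receptor for platelet-activating factor, had 6.55 to 23.3 CPM against 1.64, 2.76 and 1.29 CPM (log2 fold change 3.06, SE 0.47). *C5ar1* and *Ccr1*, receptors for complement C5a and for CCL3, were higher by 0.85 and 0.87 on the log2 scale. *Fpr2*, a formyl peptide receptor, had 0 counts in the 3 M2 libraries and 0.0657 to 0.343 CPM with rods, a level too low for a fold. *Fcgr2b*, the inhibitory Fc receptor, was higher with IL-4 at 169, 186 and 192 CPM against 73.5 to 96.6 CPM with rods (log2 fold change -1.08, SE 0.13), as were *Fcgr3*, *C3ar1* and *Ccr2*. Without M2 replicate 3 the list held 3 higher and 3 lower genes, *Fpr2* (adjusted p = 0.311), *Ccr1* (0.0780) and *Ccr2* (0.153) being among those lost. *Fcgr3* was lost without M2 replicate 2 (0.0653) and *C3ar1* without M2 replicate 1 (0.108).

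Of the other genes highest with rods, *Slc40a1* encodes ferroportin, the exporter of cellular iron. It had 0.819, 0.526 and 1.43 CPM in M2 and 3.69 to 12.6 CPM with rods (log2 fold change 2.92, SE 0.42, adjusted p = 4.03e-04), with the lowest value in CaP replicate 1. The ferritin heavy chain *Fth1*, which stores iron, had 3810, 4060 and 3320 CPM in M2 and 7330 to 8750 CPM with rods, with a log2 fold change of 1.13 (SE 0.17, adjusted p = 5.90e-04). Neither passed the test between rods and M0, where the log2 fold changes were 0.91 and 0.63.

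**Figure D2:**
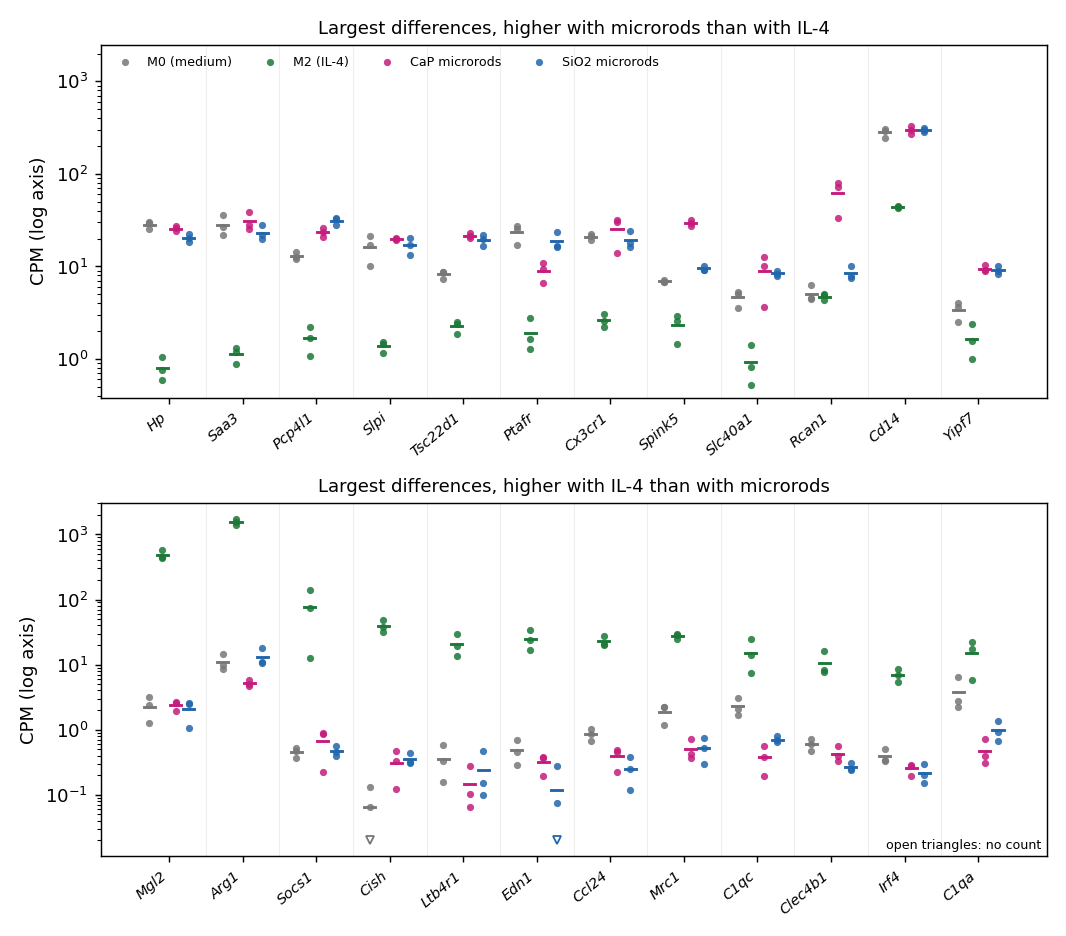
CPM on a log axis in each library for the 12 named genes with the largest differences in each direction between microrods and IL-4, with short lines at the group means and open triangles for libraries without a count. For *Hp*, *Saa3*, *Slpi* and *Cd14* the rod libraries sit level with M0 and above M2, for *Rcan1* and *Spink5* the CaP libraries sit above the SiO2 libraries, and in the lower panel every M2 library lies above every rod library.

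On a list of inflammatory cytokines and chemokines, which also holds regulators such as *Il1rn* and *Nfkbia*, every gene called was higher with rods. Of 21 tested members, 12 were higher with rods and 0 lower, with a median log2 fold change of 1.39. Against M0, IL-4 lowered 6 and raised 1, *Ccl7*, and rods raised 2, *Il1rn* and *Ccl4*, and lowered 0. *Tnf* had 14.9, 7.11 and 11.7 CPM in M2, 29.0 to 58.1 CPM with rods (median 42.6) and 19.3, 35.8 and 25.0 CPM in M0, where 1 library lay within the range of the rods. Its log2 fold change was 1.94 between rods and M2 (SE 0.30, adjusted p = 7.29e-04), -1.22 between M2 and M0 (adjusted p = 0.0446) and 0.73 between rods and M0 (adjusted p = 0.214). The chemokine *Ccl3* had 37.6, 58.0 and 34.3 CPM in M2 against 140 to 330 CPM with rods (log2 fold change 2.38, SE 0.32, adjusted p = 2.00e-04), and in each rod library it exceeded M0, which had a mean of 105 CPM. That difference missed the threshold (log2 fold change 1.09, adjusted p = 0.0864). *Ccl4* had 122, 146 and 123 CPM in M2 and 272 to 627 CPM with rods, and was raised by rods against M0 as well (log2 fold change 1.44, adjusted p = 0.0346).

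*Il1rn*, the antagonist of the IL-1 receptor, had 16.1, 12.6 and 13.5 CPM in M2, 38.7 to 84.5 CPM with rods and 12.8 ± 2.29 CPM (SD, n = 3) in M0. Here M2 and M0 overlapped and the rods lay above both (log2 fold change against M2 1.91, SE 0.27, adjusted p = 4.03e-04). *Cxcl14*, at 15.4 to 24.3 CPM in M2 and 71.0 to 95.2 CPM with rods, showed the opposite order, its level in M0 being 82.9 ± 8.78 CPM. *Ccl9* and *Cxcl10* were higher with rods by 1.39 and 2.15 on the log2 scale. *Nfkbia*, an inhibitor of NF-kB, was higher by 0.82 and *Nfkbiz*, of the same protein family, by 1.54. *Cxcl2* and *Ptgs2*, also called, were low, at most 2.77 and 0.756 CPM in any rod library. *Ccl2*, the ligand of CCR2, had 144, 225 and 147 CPM in M2 and overlapped with the rods, at 205 to 390 CPM (log2 fold change 0.76, adjusted p = 0.0383), and its call held in 5 of 12 fits without 1 library, with an adjusted p of up to 0.184 without M2 replicate 1. Without M2 replicate 3, 9 of the 21 were called, *Cxcl2* (adjusted p = 0.0575), *Ptgs2* (0.157) and *Ccl2* being lost. *Il1b*, *Il6*, *Il10* and *Nos2* did not pass the test, and *Il6* and *Nos2* were at most 0.454 and 0.341 CPM in any rod or M2 library. *Ccl7*, which IL-4 raised against M0, had 30.4, 94.8 and 30.4 CPM in M2 and 12.4 to 37.4 CPM with rods (log2 fold change -1.21, SE 0.42, adjusted p = 0.140).

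Of 38 lysosomal genes, 10 were higher with rods and 1 with IL-4, with a median log2 fold change of 0.24. *Gpnmb*, a membrane glycoprotein of lysosomes and phagosomes, had 56.8, 33.2 and 47.6 CPM in M2, 174 to 366 CPM with rods (median 321) and 89.0 ± 21.2 CPM (SD, n = 3) in M0. The rods lay above both other groups, by a log2 fold change of 2.71 over M2 (SE 0.27, adjusted p = 1.45e-05) and 1.76 over M0 (adjusted p = 0.00587). *Atp6v0d2*, a subunit of the vacuolar proton pump, had 2.25, 2.50 and 1.82 CPM in M2 and 4.12 to 15.8 CPM with rods (log2 fold change 2.19, SE 0.50, adjusted p = 0.0129), with all 3 CaP libraries above the SiO2 libraries. *Atp6v1a*, another pump subunit, was higher by 0.56. The proteases *Ctsd*, *Ctsb* and *Ctsl* were higher by 1.38, 1.19 and 1.06 on the log2 scale, and *Mitf*, a transcription factor of lysosomal genes, by 1.41 (SE 0.23, adjusted p = 0.00113). *Ctsd* varied within M2, at 214, 103 and 166 CPM against 261 to 550 CPM with rods. *Lamp1*, *Cd68* and *Tfeb* did not pass the test, with log2 fold changes of -0.05, -0.06 and -0.27.

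The lysosomal count depended on single M2 libraries. Without M2 replicate 3, 3 genes were higher with rods, *Gpnmb*, *Mitf* and *Ctsl*, and without the 3 libraries that stood apart 7 were. Among 17 genes of calcineurin signalling and of osteoclast-type cells, 5 were higher with rods and 1, *Nfatc2*, was lower. *Dcstamp*, a protein needed for the fusion of macrophages, had 12.8, 11.3 and 8.77 CPM in M2 and 24.6 to 37.1 CPM with rods (log2 fold change 1.59, SE 0.20, adjusted p = 1.01e-04). *Lat*, an adaptor of immune receptor signalling, had 1.18 to 1.98 CPM in M2, 3.37 to 7.58 CPM with rods and 1.12 ± 0.524 CPM in M0. *Nfatc1*, *Acp5* and *Mmp9* did not pass the test. Without M2 replicate 3, 2 of the 5 were called, since *Atp6v0d2* (adjusted p = 0.109), *Rcan1* (0.159) and *Ctsk* (0.521) were lost. *Ctsk*, a protease of osteoclasts at no more than 1.05 CPM in any rod library, held in 1 of 12 fits without 1 library.

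**Figure D3:**
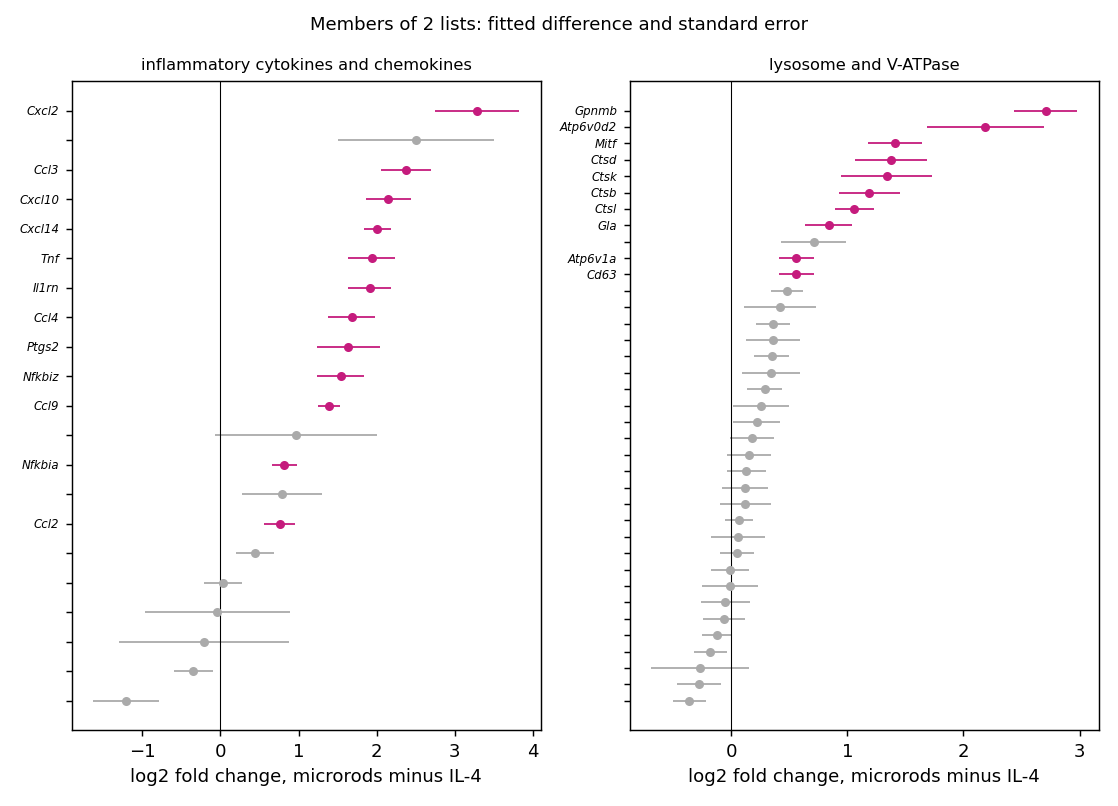
Fitted log2 fold change between microrods and IL-4, with its SE as a bar, for the tested members of the list of inflammatory cytokines and chemokines (left) and of the list of lysosomal genes (right) that were not lower with rods by the test. Coloured, named points passed the test, 12 of the 21 tested genes on the left and 10 of the 38 on the right, and grey points did not.

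Some genes were moved from M0 in opposite directions by rods and IL-4. All of them differed between rods and M2, which follows largely from how they were picked, since that difference is made of both shifts. Rods lowered and IL-4 raised 8 genes, the complement genes *C1qa*, *C1qb*, *C1qc* and *C3*, the mannose receptor *Mrc1*, the lectins *Clec4a1* and *Clec4a3* and the lysosomal protease *Ctsh*. *C1qb*, 1 chain of the first complement component, had 13.4, 26.8 and 24.3 CPM in M0, 90.5, 60.4 and 96.2 CPM in M2 and 3.20 to 7.19 CPM with rods (median 4.35). The 3 groups did not overlap, and the log2 fold change with rods was -2.23 from M0 (adjusted p = 0.00153) and -4.19 from M2 (SE 0.27, adjusted p = 9.49e-08). *C1qa* had 17.3, 5.79 and 22.4 CPM in M2, where replicate 2 lay within the range of M0 (2.24 to 6.44 CPM), and 0.308 to 1.37 CPM with rods, and *C1qc* had 7.37, 14.2 and 24.4 CPM in M2 and 0.197 to 0.793 CPM with rods. *C3* had 43.3, 66.2 and 34.2 CPM in M2, 3.52 to 6.11 CPM with rods and 12.4, 12 and 7.07 CPM in M0, with a log2 fold change between rods and M2 of -3.26 (SE 0.23).

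*Mrc1* had 30.0, 28.0 and 24.7 CPM in M2, 2.19, 1.17 and 2.20 CPM in M0 and 0.294 to 0.753 CPM with rods. The log2 fold change with rods was -1.92 from M0 (adjusted p = 0.00784) and -5.80 from M2 (SE 0.24, adjusted p = 1.51e-09). *Clec4a1* and *Clec4a3*, which are close paralogs and may share reads, differed between rods and M2 by -3.70 and -3.51 on the log2 scale, and *Ctsh* by -1.88, at 155, 174 and 136 CPM in M2 against 37.9 to 47.1 CPM with rods. The difference from M2 held for all 8 genes in each of the 12 fits without 1 library. The fall with rods against M0 held in all 12 for *C1qb*, in 11 for *Mrc1*, in 9 for the *Clec4a* genes and in 3 for *C1qa*, *C1qc*, *C3* and *Ctsh*, and without M0 replicate 1 *C1qb* alone of the 8 was called in both comparisons with M0. The rise of *C1qa* with IL-4 held in 7 of 12.

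Rods raised and IL-4 lowered 5 genes, *Tsc22d1*, *Yipf7*, *Pcp4l1*, *4930447F24Rik* and the unnamed gene ENSMUSG00000139742. *Tsc22d1*, a leucine zipper protein induced by TGF-beta, had 7.30, 8.72 and 8.80 CPM in M0, 2.39, 2.50 and 1.86 CPM in M2 and 16.7 to 22.8 CPM with rods. Its groups did not overlap, with log2 fold changes of 1.32 between rods and M0 (adjusted p = 0.00158), -1.93 between M2 and M0 (adjusted p = 5.76e-05) and 3.25 between rods and M2 (SE 0.19, adjusted p = 4.41e-08), and all 3 calls held in each fit without 1 library. *Pcp4l1*, a small relative of the calmodulin-binding protein PCP4, had 12.1, 14.2 and 12.5 CPM in M0, 1.09, 2.24 and 1.67 CPM in M2 and 20.9 to 33.6 CPM with rods, and *Yipf7*, of a family of Golgi membrane proteins, had 2.48 to 4.05, 0.987 to 2.37 and 8.22 to 10.3 CPM. The rise of *Pcp4l1* with rods against M0 was lost without M0 replicate 1 (adjusted p = 0.178) or 3, and that of *Yipf7* without M0 replicate 1 (0.0891), while the fall of *Yipf7* with IL-4 held in 8 of 12 fits.

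**Figure D4:**
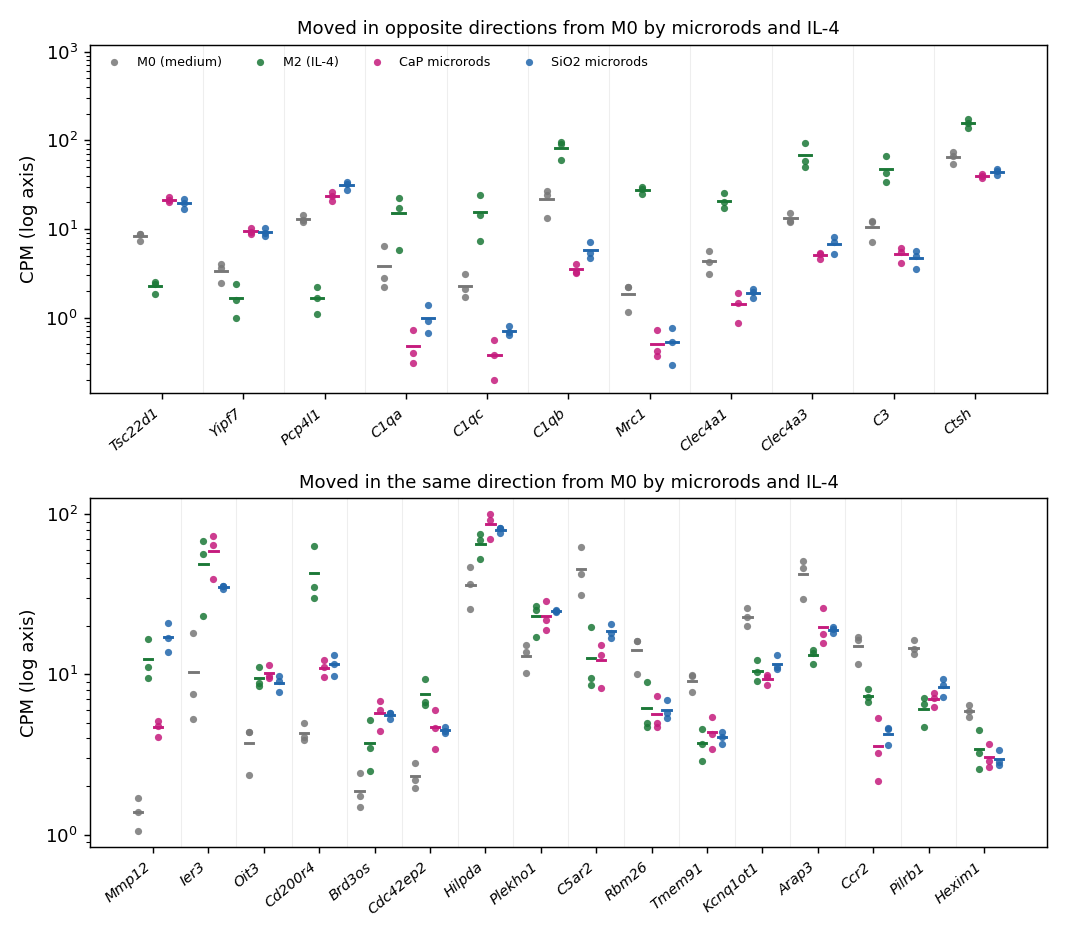
CPM on a log axis in each library, with lines at the group means, for named genes moved from M0 in opposite directions by microrods and IL-4 (upper panel) and in the same direction (lower panel). In the upper panel M0 lies between the rods and M2 for each gene, and in the lower panel the rods and M2 lie on the same side of the M0 mean.

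Genes moved alike were 15 raised and 33 lowered by both, and of these 4 also differed between rods and M2, *Cd200r4*, *Nfil3*, *Cdc42ep2* and *Ccr2*, each being lower with rods. *Cd200r4*, an activating receptor whose close relatives may share its reads, had 3.90, 4.94 and 4.05 CPM in M0, 35.1, 63.6 and 30.1 CPM in M2 and 9.62 to 13.3 CPM with rods. The rods lay between the other groups (log2 fold change 1.39 from M0 and -1.91 from M2, SE 0.20, adjusted p = 2.24e-05). *Nfil3*, a transcription factor induced by IL-4, was likewise raised less by rods (0.80 from M0) than by IL-4 (2.70), with a log2 fold change between them of -1.90. So was *Cdc42ep2*, whose difference from M2 (adjusted p = 0.0427) held in 4 of 12 fits without 1 library, with 0.289 without M2 replicate 1. *Mmp12*, macrophage elastase, had 1.05, 1.69 and 1.39 CPM in M0, 11.1, 16.6 and 9.56 CPM in M2 and 4.08 to 20.9 CPM with rods, log2 fold changes from M0 of 3.03 and 3.19 with rods and IL-4. Its 3 SiO2 libraries (13.8 to 20.9 CPM) all lay above its 3 CaP libraries (4.08 to 5.15 CPM), and the pooled difference from M2, -0.16 (SE 0.48), averaged a lower level with CaP (-1.36, adjusted p = 0.0131) and 0.51 with SiO2 (adjusted p = 0.585). Its rise with rods against M0 held in 5 of 12 fits without 1 library (adjusted p of up to 0.360 without M0 replicate 1). *Ier3*, an immediate early gene, *Hilpda*, a lipid droplet protein, and *Ero1l*, an oxidase of protein folding, rose from M0 by 2.21, 1.22 and 1.14 with rods and by 2.27, 0.85 and 0.72 with IL-4. Of the 12 fits without 1 library, the rise with rods held in 4, 10 and 12 and the rise with IL-4 in 8, 1 and 9. Without M0 replicate 1 the adjusted p reached 0.319 with rods for *Ier3* and 0.241 with IL-4 for *Hilpda*. The rises of *Cd200r4* and *Nfil3* with rods held in 10 and 8 (up to 0.178 and 0.207, without M0 replicate 1).

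Of the genes lowered by both, *Ccr2*, the receptor of CCL2, had 17.1, 11.7 and 16.3 CPM in M0, 7.23, 6.71 and 8.06 CPM in M2 and 2.17 to 5.33 CPM with rods. The 3 groups did not overlap, and the log2 fold change was -1.98 between rods and M0 (adjusted p = 8.97e-04), -1.02 between M2 and M0 (adjusted p = 0.0479) and -0.96 between rods and M2 (adjusted p = 0.0272). The call between rods and M0 held in each fit without 1 library, that between M2 and M0 in 3 of 12 and that between rods and M2 in 8 of 12, with 0.153 without M2 replicate 3. *C5ar2*, a second receptor for complement C5a, had 62.8, 31.2 and 42.4 CPM in M0, 9.48, 19.9 and 8.54 CPM in M2 and 8.27 to 20.8 CPM with rods. *Arap3*, a regulator of small GTPases, *Rbm26* and *Kcnq1ot1* fell from M0, with log2 fold changes of -1.12, -1.30 and -1.12 with rods and of -1.68, -1.26 and -1.13 with IL-4. The fall with rods held in 10 of 12 fits without 1 library for *C5ar2*, 9 for *Arap3* and *Rbm26* and 5 for *Kcnq1ot1* (adjusted p of up to 0.214, without M0 replicate 1). The fall with IL-4 held in 8 for *Rbm26* and 7 for *Kcnq1ot1*. *Kcnq1ot1* is an antisense RNA and how strand entered the counting is not given in the sources used here, so its reads cannot be told from those of its host gene. The numbers raised and lowered alike moved with single libraries, to 0 and 0 without M0 replicate 1, 23 and 91 without M0 replicate 2, 4 and 5 without M0 replicate 3, 38 and 136 without M2 replicate 2 and 8 and 10 without M2 replicate 3, and both comparisons share the M0 libraries. Without M2 replicate 1, CaP replicate 2 or 3 or any 1 SiO2 library they were 6 to 9 and 11 to 25.

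Of 5 tested MHC class II genes, 4 were lower with rods, with a median log2 fold change of -1.05, and IL-4 raised these 4 against M0 whereas rods raised 0. *Cd74*, the invariant chain, had 2620, 1910 and 2580 CPM in M2, 302 to 787 CPM with rods and 573 ± 134 CPM (SD, n = 3) in M0 (log2 fold change -1.85, SE 0.23, adjusted p = 1.02e-04). *H2-DMa*, which loads peptides, had 39.8, 35.4 and 27.6 CPM in M2 and 1.97 to 3.71 CPM with rods. The class II chains *H2-Aa*, *H2-Ab1* and *H2-Eb1* and their regulator *Ciita* were too low to be tested. Of 10 genes of costimulation, *Cd40*, *Cd274*, *Havcr2* and *Pdcd1lg2* were lower with rods and *Tnfsf9* was higher, with *Cd274*, the ligand of PD-1, at 6.21, 5.40 and 5.19 CPM in M2 and 1.00 to 1.59 CPM with rods. The macrophage marker *Adgre1*, which encodes F4/80, was also higher with IL-4, at 246, 145 and 193 CPM against 27.4 to 69.6 CPM with rods (log2 fold change -1.85, adjusted p = 2.25e-04).

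Interferon-stimulated genes went both ways, with 5 of 22 higher with rods and 2 lower. *Rsad2*, *Ifit3*, *Oasl2*, *Rtp4* and *Ifit1* were higher with rods by 1.22 to 2.76 on the log2 scale at levels of at most 13.3 CPM. *Irf7*, the regulator of type I interferon, had 55.8, 20.8 and 39.7 CPM in M2 and 6.44 to 18.6 CPM with rods, and *Usp18*, an inhibitor of interferon signalling, had 26.5, 22.1 and 19.5 CPM in M2 and 4.01 to 8.85 CPM with rods. IL-4 raised both of the last against M0, by 2.51 and 2.95 on the log2 scale. Without M2 replicate 3, 2 genes were higher with rods, *Ifit1* (adjusted p = 0.227), *Ifit3* (0.0745) and *Rtp4* (0.0508) being lost.

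Against the 5.81% called over all genes, the share called was lower in the cell cycle, cholesterol and glycolysis lists and higher in the redox, zinc, lipid and stress lists. The lists are small, the gaps from that share are of a few genes, and no list was tested as a set. Of 28 cell cycle genes and 20 genes of cholesterol synthesis and uptake, 0 were called between rods and M2, with median log2 fold changes of -0.05 and -0.09. Of 29 genes of glycolysis and the HIF-1 response, 1 was called, the peptide hormone gene *Adm*, at 30.2, 16.7 and 20.3 CPM in M2 and 30.0 to 57.1 CPM with rods. Its call held in 5 of 12 fits without 1 library (adjusted p = 0.171 without M2 replicate 3). Of 22 genes that respond to NRF2, the regulator of antioxidant defence, 3 were higher with rods, *Fth1*, *Me1* and *Srxn1*. *Hmox1*, haem oxygenase 1, had 141 to 206 CPM with rods and 106 ± 25.6 CPM in M2 (log2 fold change 0.63, adjusted p = 0.169). Among 9 metallothionein and zinc genes the zinc importers *Slc39a2* and *Slc39a14* were higher with rods and the exporter *Slc30a4* was lower. The call of *Slc39a14* held in 5 of 12 fits without 1 library (adjusted p of up to 0.122 without M2 replicate 2), and *Mt1* overlapped at 1040 to 1570 CPM with rods and 989 to 1570 CPM in M2.

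Of 15 genes of lipid handling, *Plin2*, which coats lipid droplets, and *Abca1*, which exports cholesterol, were higher with rods by 0.83 and 1.07 on the log2 scale and *Acadm*, of fatty acid oxidation, was lower (log2 fold change -0.65). Of 18 genes of the unfolded protein and integrated stress responses, *Ddit3* was higher with rods, at 27.1 to 50.5 CPM against 16.4, 22.6 and 12.7 CPM in M2, and *Creld2* was lower. Of 5 matrix metalloproteinase genes and inhibitors, *Timp2* was lower. *Ddit3* was also raised by rods against M0 (log2 fold change 1.40, adjusted p = 0.0199), and its call against M2 was lost without M2 replicate 1 or 3 (adjusted p of up to 0.0965). Without M2 replicate 3, 1 of the NRF2 genes and 0 of the lipid genes were called as higher, *Srxn1* (adjusted p = 0.0928), *Me1* (0.0663), *Plin2* (0.0747) and *Abca1* (0.151) being lost.

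**Figure D5:**
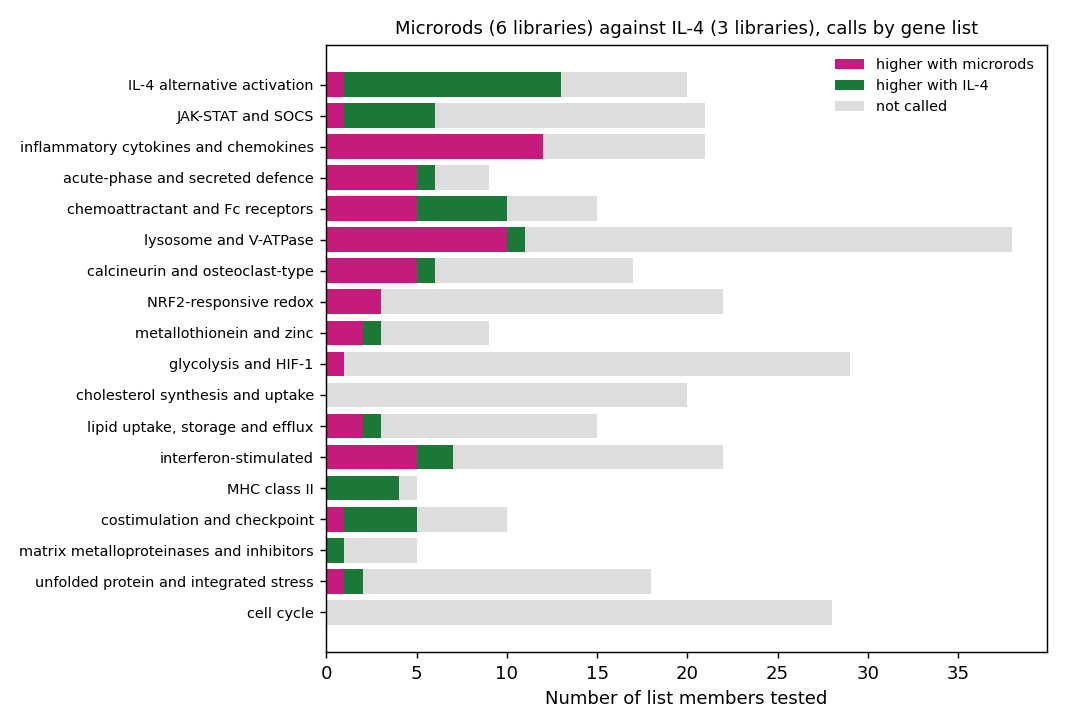
Number of tested members of each of 18 gene lists that were higher with microrods, higher with IL-4 or not called between the groups. Inflammatory genes (12 of 21) and lysosomal genes (10 of 38) hold the most calls on the side of the rods, genes of alternative activation (12 of 20) the most on the side of IL-4, and the cell cycle and cholesterol lists hold none.

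Between CaP and SiO2 microrods, 3 of 16654 genes (0.018%) differed, with 276 at an unadjusted p below 0.05 and 17 called by DESeq2. These genes were *Rcan1*, *Spink5* and *Serpinb1a*, the last named after its values were seen. *Rcan1*, an inhibitor of the phosphatase calcineurin, had 33.8, 72.8 and 79.9 CPM with CaP, 7.98, 10.2 and 7.45 CPM with SiO2 and 4.98, 4.87 and 4.34 CPM in M2. CaP lay above SiO2 by a log2 fold change of 2.87 (SE 0.30, adjusted p = 0.00150), CaP differed from M2 (3.73, adjusted p = 5.65e-06) and SiO2 did not pass (0.86, SE 0.31, adjusted p = 0.219). The pooled difference from M2, 2.92 (SE 0.78, adjusted p = 0.0392), averages these unlike values, and it held in 4 of 12 fits without 1 library.

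*Spink5*, an inhibitor of serine proteases, had 32.0, 27.3 and 29.7 CPM with CaP, 9.25, 10.2 and 9.15 CPM with SiO2 and 2.93, 1.45 and 2.56 CPM in M2, and each rod type alone was above M2 (log2 fold changes 3.6 and 1.96). *Serpinb1a*, an inhibitor of neutrophil proteases, had 8.92, 8.88 and 9.44 CPM with CaP, 0.832, 0.908 and 0.555 CPM with SiO2 and 1.84, 2.24 and 1.09 CPM in M2. The M2 libraries fell between the rod types, and the pooled difference from M2 did not pass the test (log2 fold change 1.76, SE 0.77, adjusted p = 0.287). For *Atp6v0d2* and *Mmp12* the difference between the rod types missed the threshold, with log2 fold changes of 1.67 and -1.87 (SEs 0.27 and 0.29, adjusted p = 0.0579 for each), and for *Arg1*, *Ccl3* and *Ptafr* it was -1.35, 1.04 and -1.07 (adjusted p = 0.124, 0.124 and 1). Equal mass of the rod types is not an equal number of rods, and material and number of rods cannot be told apart here.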

How the data were processed

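The authors made Smart-seq2 libraries, sequenced paired-end reads, ran nf-core/rnaseq with STAR and Salmon on the Ensembl annotation (GRCm39 per the labels), and deposited raw counts, whole numbers for 78317 gene identifiers in 15 libraries, with no normalization or filter. Salmon estimates counts, so these may be rounded, and near-identical genes divide their reads by that estimate. Of the identifiers, 51487 were given a symbol from an annotation of another release, used for names alone.

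The analysis ran in edgeR 4.0.16 under R 4.3.3. Genes were filtered with filterByExpr, libraries scaled with TMM, and all 15 libraries fitted together with the 6 rod libraries as 1 group, without a term for the replicate number. To be called, a gene had to pass 0.05 in adjusted p and 0.5 in the size of its log2 fold change, as in the study, whose own test, DESeq2 (here 1.42.0), was run as an alternative. A fit of 5 separate groups gave the values of each rod type. CPM values are relative to the TMM-scaled sum of the genes tested, log2 fold changes and their standard errors come from the fit, and a gene at or under 3 counts in each library of a group was taken to be at the floor. Counts of amplified cDNA without molecular identifiers cover counting error only.

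Named genes were, by rule, the 12 with the largest difference in each direction among called genes with a mean of at least 5 CPM, no overlap between the libraries and a symbol that is not a Gm or Rik name, up to 8 from each class of genes called in both comparisons with M0, the called members of the lists, and genes that the study names. *Nfil3*, *Nodal*, *Ero1l*, *4930447F24Rik*, *Serpinb1a* and list members that were not called were named as well. The genes, lists and comparisons were chosen with earlier results of these data known. Replicate libraries differed by more than sampling noise in all 15 pairs (chi-square per gene from 7.55 to 152). The tests were tried on simulated counts with known changes. Those were set in M2 alone, with no difference set between the rod types or between rods and M0. The outcome is not given here and nothing rests on it. Alternatives covered the tool, scaling, filter, depth, threshold, libraries in the fit, a replicate block and each library left out in turn. Some members of the lists are not reported here by name. Authors' comparisons were not used.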

Additional observations from a re-analysis of the deposited data

Results flagged for a closer look

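Of 54 genes examined over the 6 rod libraries, 1 had a library far from the others, *Il6*, at 0.454 CPM in SiO2 replicate 2 against 0 to 0.147 CPM in the other rod libraries. Chance alone would single out about 1 gene in 20 in this way, and the level is low.

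The effect of rods relative to M2 differed between the rod types in 3 genes by the test of that difference, each higher with CaP. The log2 fold change between CaP and SiO2 was 3.61 for *Serpinb1a* (9.08 and 0.765 CPM on average, adjusted p = 2.34e-06 from edgeR), 2.87 for *Rcan1* (62.2 and 8.55 CPM, adjusted p = 0.00150) and 1.64 for *Spink5* (29.7 and 9.54 CPM, adjusted p = 0.00150). In all 3 genes the 3 CaP libraries lay above the 3 SiO2 libraries.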

How the results depend on the processing

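Over 24 settings, 96 of 246 results for single genes kept their side of the threshold in each setting that tested them. Called results also had to keep their direction, and 0 of these reversed. The sign of results that stayed uncalled was not followed. Some settings tested fewer of them, 179 with at least 10 counts in every library. The number of genes called between rods and M2 (968) was 644 to 997 when 1 library was left out, the lowest without M2 replicate 3, where 553 of the genes were shared. By DESeq2 it was 1066, without a filter 1053, without the 3 libraries that stood apart 889 and without the M1 libraries 832.

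Counts that rest on M0 moved more. Between rods and M0 (149 genes) they were 507 by DESeq2, 539 without a filter, 90 with the 2 groups alone, 89 with libraries thinned to the smallest, 65 without the 3 libraries that stood apart, and 13 to 391 with 1 library left out. Between M2 and M0 (772) they were 97 with the 2 groups alone, 504 after thinning and 345 to 1458 with 1 library left out. Genes raised by both (15) became 66 by DESeq2, 88 without a filter, 6 without the M1 libraries, 1 with the 2 groups alone, 6 after thinning, 9 at a log2 fold change above 1, 5 without the 3 libraries and 0 to 38 with 1 left out. Genes lowered by both (33) became 101, 71, 1 (2 groups alone), 16 (legacy quasi-likelihood), 18 (thinned), 21 (above 1), 10 (without the 3 libraries) and 0 to 136. Genes raised by rods and lowered by IL-4 (5) became 14 by DESeq2, 9 without a filter, 8 with the rod types averaged, 3 without M1, 3 with the 2 groups alone, 2 after thinning, 3 without the 3 libraries and 2 to 10. Genes lowered by rods and raised by IL-4 (8) became 4 without M1, 2 with the 2 groups alone, 3 after thinning, 5 without the 3 libraries and 1 to 11. Genes higher with rods that IL-4 alone lowered (223) became 143 without a filter, 22 with the 2 groups alone, 142 after thinning and 82 to 278, and genes lower with rods that IL-4 alone raised (250) became 64 with the 2 groups alone and 149 to 296. Genes higher with rods that rods alone raised (42) became 77 by DESeq2, 83 without a filter and 24 with the 2 groups alone. Between CaP and SiO2 (3) DESeq2 called 17. The cause of these shifts was not tested.

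Whether the replicate numbers pair the wells could not be decided. Of 18 same-numbered pairs 9 correlated above 0.1, with values from -0.7 to 0.6, and 6 of 12 libraries correlated best with their own number. A fit with the replicate number as a block called 840 genes between rods and M2 (450 higher, 390 lower), 88 between rods and M0, and 5 raised by both, 13 lowered by both and 5 lowered by rods and raised by IL-4.

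Genes at or under 3 counts in each library of a group cannot be given a fold at this depth, and each of M0 and M2 rests on 3 wells.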
